A study of Saccharomyces cerevisiae with 3 samples.

Results

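Histone genes were examined in budding yeast, Saccharomyces cerevisiae, exposed to 2-aminobenzimidazole, the parent amine of the benzimidazole carbamate fungicides. The gene group was set by name and held 10 genes, the core histone genes HTA1, HTA2, HTB1, HTB2, HHT1, HHT2, HHF1 and HHF2, the linker histone gene HHO1 and the histone variant gene HTZ1. Of these 10, 8 had a spot named on the array, 1 spot each, and all 8 had a value on all 3 arrays, which held for 3039 of the 5203 named genes. No spot carried HTA2 or HHO1 as its only gene symbol, and both were not analysed here. Treated cultures were of strain S288C in rich glucose medium at 25 °C and received the compound in exponential growth to 5 mM for 2 h. Control cultures of the same strain grew for the same 2 h with nothing added, and whether they received the solvent of the stock is not given in the sources used here. Messenger RNA selected by its poly(A) tail was compared on 3 two-colour arrays of separate biological samples, treated RNA in Cy5 and control RNA in Cy3, with 0 dye-swapped arrays, so a dye effect on a gene and the treatment cannot be told apart.

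Core histones H2A, H2B, H3 and H4 form the protein spool around which DNA is wrapped in the nucleosome, and the linker histone binds the DNA between nucleosomes. Budding yeast carries a pair of genes for each core histone, arranged as divergently transcribed partners: HTA1 with HTB1 and HTA2 with HTB2 encode H2A with H2B, and HHT1 with HHF1 and HHT2 with HHF2 encode H3 with H4. Transcription of the core genes is confined mainly to S phase, when new DNA is packaged, and outside S phase it is restrained by the Hir complex at the core loci other than HTA2 and HTB2. HTZ1 encodes H2A.Z, which the SWR1 complex exchanges into nucleosomes near promoters and whose synthesis is not tied to DNA replication in the same way. Unlike most animal histone messages, those of yeast are polyadenylated, so an oligo-dT preparation captures them. The files hold ratios and no levels, so the identity of the culture could not be checked from marker levels, and the labels give no synchronisation. In such a bulk culture fewer cells in S phase and less histone RNA per cell cannot be told apart.

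Every value below is a log2 ratio, treated over control. That direction is likely from the channel labels but is not written in the table, and every sign would turn if the ratio ran the other way. Base 2 was taken as customary, and with natural logs every size would be larger by one constant factor. The arrays held 3321, 5599 and 5823 values of 6272 spots, and over the 3039 tested genes their ratios correlated at 0.748 (arrays 1 and 3), 0.520 (arrays 1 and 2) and 0.468 (arrays 2 and 3), Pearson r across genes, which are not independent replicates. The number of arrays limits the precision. The title of array 1 carries an added letter H that the labels do not explain, and this array held the fewest values.

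The median absolute mean log2 ratio was 0.41 for the 8 measured histone genes and 0.52 for all tested genes. The absolute log2 ratio of all 8 measured histone genes was under 1 on every array, as was true of 47.3% of all tested genes. That is less than 2-fold only if the base is 2. With natural logs the lowest values, such as HHT2 at -0.80 on array 3, would pass 2-fold. The means of 7 of the 8 lay below 0, against 52.3% of all genes. In limma, a linear model that pools the spread of genes to steady each gene's error, 0 of the 8 were higher and 0 lower at an adjusted p below 0.05, where 8.36% of the 3039 genes were higher and 9.64% lower, 18.0% in all. At an unadjusted p below 0.05 the count was also 0 of 8, against 16.3% of genes higher and 19.8% lower. The median of the 8 means was -0.41 and that of all genes -0.041. All 3 arrays were below 0 for 4 of the 8 genes, against 30.6% of all genes, and above 0 for 0 of the 8, against 25.8%. The shifts towards lower ratios did not pass the test. With 3 arrays a count of 0 says little about changes of this size, and the intervals given below bound what the data allow.

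**Figure D1:**
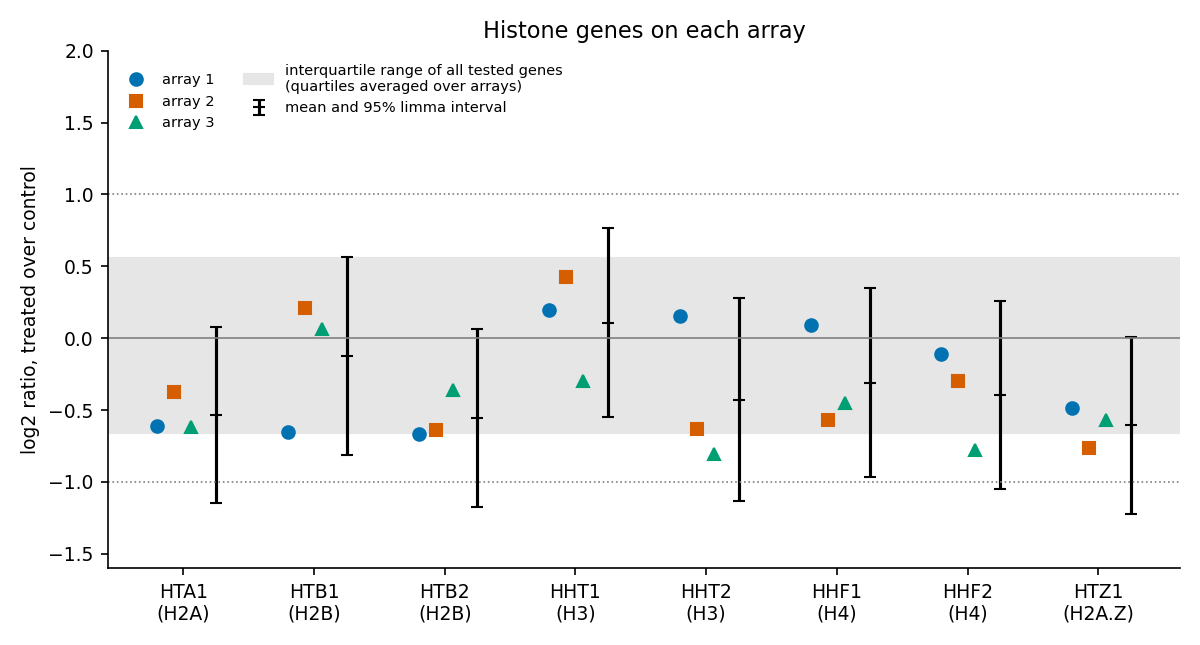
The vertical axis is the log2 ratio, treated over control, for each measured histone gene on arrays 1, 2 and 3 (points), with the mean and its 95% limma interval (bar); the grey band is the interquartile range of all tested genes and dotted lines mark a 2-fold change. All points lie between -0.80 and 0.43, and HTA1, HTB2, HHF2 and HTZ1 are below 0 on every array.

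Of the genes for H2A and H2B, HTA1 (YDR225W), one of the genes for H2A, had log2 ratios of -0.61, -0.37 and -0.62 on arrays 1, 2 and 3. All arrays were below 0 and close together, with a mean of -0.53 ± 0.14 (SD, n = 3), 1.45-fold lower. The 95% limma interval ran from -1.15 to 0.081 and the adjusted p was 0.189 (limma). HTB2 (YBL002W), a gene for H2B, was alike, with log2 ratios of -0.67, -0.64 and -0.36 and a mean of -0.56 ± 0.17 (SD, n = 3; adjusted p = 0.174, limma). Its divergent partner HTA2 is one of the genes not analysed here. HTB1 (YDR224C), the other H2B gene and the divergent partner of HTA1, was low on array 1 alone, with log2 ratios of -0.65, 0.21 and 0.066. Its mean of -0.12 ± 0.46 (SD, n = 3) had an adjusted p of 0.794 in limma. The sign of the HTB1 mean rested on array 1: without that array it was 0.14.

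Of the genes for H3 and H4, HHT1 (YBR010W), an H3 gene, was the only one of the 8 histone genes with a mean above 0. Its log2 ratios were 0.20, 0.43 and -0.30, with a mean of 0.11 ± 0.37 (SD, n = 3; adjusted p = 0.812, limma), and without array 2 the mean was -0.052. The other H3 gene, HHT2 (YNL031C), had log2 ratios of 0.15, -0.63 and -0.80, above 0 on array 1 and below it on arrays 2 and 3. Its mean was -0.43 ± 0.51 (SD, n = 3; adjusted p = 0.345, limma), and -0.72 without array 1. HHF1 (YBR009C), an H4 gene, was likewise above 0 on array 1 alone, at 0.095, -0.57 and -0.45, with a mean of -0.31 ± 0.35 (SD, n = 3; adjusted p = 0.461, limma), and -0.51 without array 1. HHF2 (YNL030W), the other H4 gene, was below 0 throughout, at -0.11, -0.30 and -0.78. Its mean of -0.39 ± 0.35 (SD, n = 3; adjusted p = 0.348, limma) was -0.20 without array 3.

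The variant gene HTZ1 (YOL012C) had the lowest mean of the 8. Its log2 ratios were -0.49, -0.77 and -0.57, all below 0, with a mean of -0.61 ± 0.14 (SD, n = 3), 1.52-fold lower. The 95% limma interval was -1.22 to 0.0074, with an unadjusted p of 0.0522 and an adjusted p of 0.143. Its lower bound stood for a level 2.33-fold lower, and the upper bound for a level about equal to the control. Across the other 7 genes the lowest interval bound was -1.17 (HTB2) and the highest was 0.77 (HHT1), so falls somewhat beyond 2-fold were within the intervals, as were smaller rises.

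HTA1, HTB2 and HTZ1 repeated more closely than most genes. Their SDs over the arrays were 0.14, 0.17 and 0.14, against a median SD of 0.47 over the 3039 genes, while the limma standard errors, drawn towards the common spread, were 0.261, 0.263 and 0.262. With each gene's own variance alone, an alternative added after these values were seen, the unadjusted p was 0.0219, 0.0294 and 0.0185 (2 residual degrees of freedom), and 0.207, 0.214 and 0.206 after Benjamini-Hochberg adjustment over all genes. In that setting 635 of all 3039 genes had an unadjusted p below 0.05 and 0 passed the adjusted threshold. The exact two-sided sign-flip permutation test gave 0.25 for each of these 3 genes, the smallest p that 3 arrays allow.

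**Figure D2:**
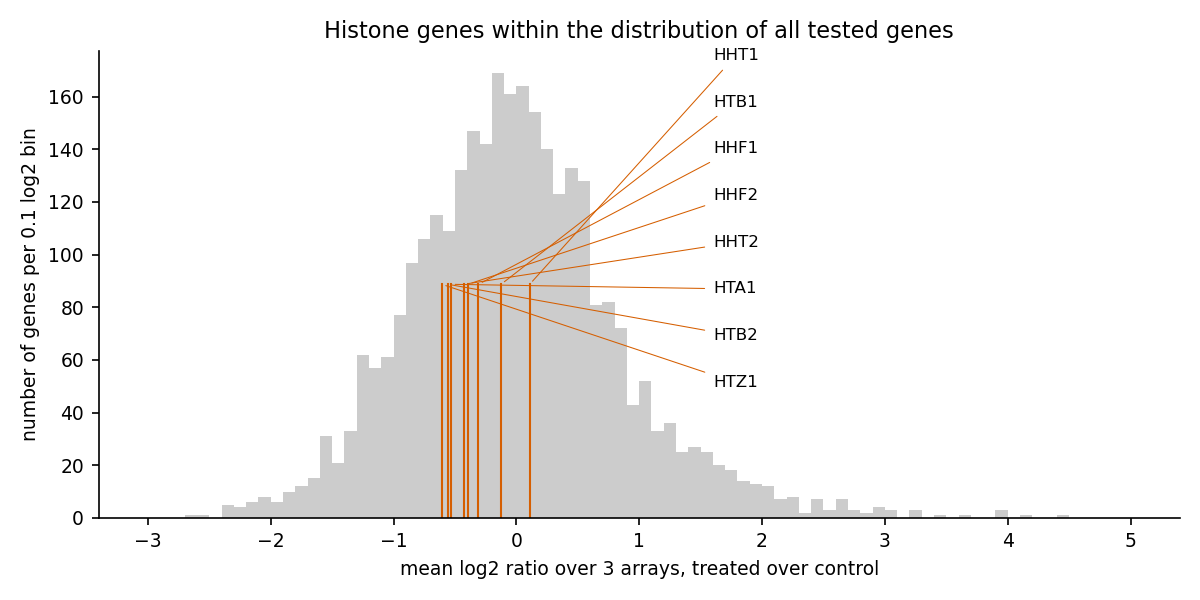
The histogram counts the 3039 tested genes by their mean log2 ratio over 3 arrays (horizontal axis, bins of 0.1), and each orange line is the mean of one histone gene. The histone genes lie between -0.61 (HTZ1) and 0.11 (HHT1), within the central mass of genes.

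Ranked from the lowest among the 3039 means, HTZ1 stood at percentile 23.8, HTB2 at 25.2, HTA1 at 26.4 and HHT2 at 30.4. HHF2 followed at percentile 32.3, HHF1 at 36.5, HTB1 at 45.7 and HHT1 at 58.0. No pair of neighbours in this order differed by more than the SD of their difference over the arrays. The ends of the order, HHT1 minus HTZ1, differed by 0.68, 1.196 and 0.27 on arrays 1, 2 and 3, with a mean of 0.71 ± 0.47 (SD, n = 3; exact sign-flip permutation p = 0.25, two-sided, the smallest that 3 arrays allow). HHT1 was thus above HTZ1 on each array, though the pair was picked as the extremes of the 8.

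The H2A and H2B genes and the H3 and H4 genes took different positions on array 1. There the 3 genes for H2A and H2B lay between -0.67 and -0.61, and the 4 genes for H3 and H4 between -0.11 and 0.20, with no overlap. On arrays 2 and 3 the ranges overlapped and the order of the medians was turned. How often sets of 3 and 4 genes separate on 1 of 3 arrays was not tested. The medians on arrays 1, 2 and 3 were -0.65, -0.37 and -0.36 for H2A and H2B and 0.12, -0.43 and -0.62 for H3 and H4. The difference of these medians, H2A and H2B minus H3 and H4, averaged -0.15 ± 0.55 (SD, n = 3; exact sign-flip permutation p = 1, two-sided), and 0.16 when array 1 was left out. All genes had medians of -0.061, -0.044 and -0.026 on the same 3 arrays.

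Both genes for one histone encode identical or nearly identical proteins, and their coding sequences are similar, so cross-hybridisation between copies is possible and was not tested. HTB1 minus HTB2 was 0.017, 0.85 and 0.43 on arrays 1, 2 and 3, with a mean of 0.43 ± 0.42 (SD, n = 3). HHT1 minus HHT2 was 0.044, 1.06 and 0.51, with a mean of 0.54 ± 0.51 (SD, n = 3). In these H2B and H3 pairs the copies were nearly level on array 1 and furthest apart on array 2, and the exact permutation p was 0.25 for each (two-sided; 0.583 adjusted over 7 comparisons). HHF1 minus HHF2 was 0.20, -0.27 and 0.33, which changed sign between arrays (mean 0.086 ± 0.32, SD, n = 3; exact permutation p = 0.75).

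Divergent partners share one intergenic region. HTA1 minus HTB1 was 0.042, -0.58 and -0.68 on arrays 1, 2 and 3 (mean -0.41 ± 0.39, SD, n = 3; exact permutation p = 0.5). HHF1 minus HHT1 was -0.10, -0.996 and -0.15 (mean -0.42 ± 0.50, SD, n = 3; exact permutation p = 0.25), and the separation came from array 2. HHF2 minus HHT2 was -0.26, 0.34 and 0.025 (mean 0.034 ± 0.30, SD, n = 3; exact permutation p = 0.75), the closest pair by mean. With 3 arrays none of these comparisons could fall below 0.25.

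**Figure D3:**
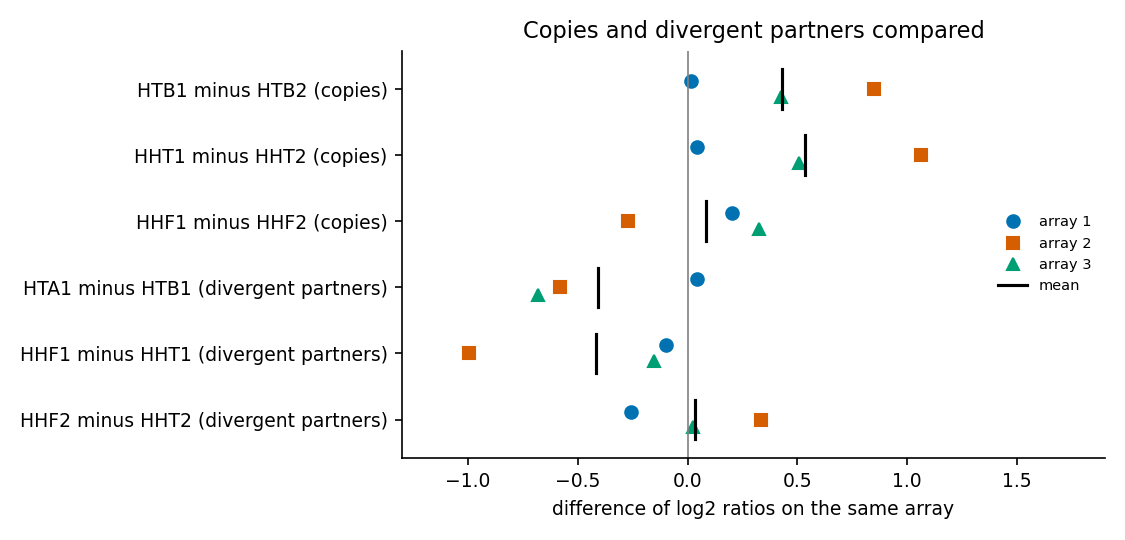
Each row is a pair of histone genes and the horizontal axis is the difference of their log2 ratios on the same array (points for arrays 1, 2 and 3, bar for the mean). On array 2 HTB1 exceeded HTB2 by 0.85, HHT1 exceeded HHT2 by 1.06 and HHF1 minus HHT1 was -0.996, while on array 1 no pair was more than 0.26 apart.

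The genes that control, handle and modify histones were counted in 12 lists of 136 genes, of which 131 had a spot and 48 a value on all 3 arrays. Of the 48, 1 (2.08%) was higher and 4 (8.33%) were lower in limma, against 8.36% and 9.64% of all genes. At an unadjusted limma p below 0.05, 16.3% of all tested genes were higher and 19.8% lower. The unadjusted counts of the lists below stand beside those shares. Array 1 lacked a value for most of the others, so the ratios of arrays 2 and 3 are given where needed. No call in these lists held when array 1 or array 3 was left out, when limma passed 0 of all 3039 genes (635 and 715 at an unadjusted p below 0.05). Each of the main calls held without array 2, when limma called 373 of the 3039 genes higher and 366 lower.

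Of the regulators of histone gene transcription, 3 of 12 were tested and 0 passed in limma, also at an unadjusted p below 0.05. YTA7, a bromodomain ATPase bound at histone genes, had log2 ratios of 1.18, 0.29 and 0.071 (mean 0.51 ± 0.58, SD, n = 3; adjusted p = 0.279, limma). All 12 had values on arrays 2 and 3, with medians of -0.055 and -0.49. Within the Hir complex, HIR1, HIR2 and HPC2 lay between -0.52 and 0.34 on those arrays, and HIR3 at -0.42 and -2.14. SPT10, which activates the core histone promoters, was at -0.065 and 0.61, and its partner SPT21 at 0.25 and 0.42. These genes with 2 arrays were named after their values were seen.

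Of the histone chaperones and assembly factors, 6 of 17 were tested, and SPT16 alone was lower. SPT16, the large subunit of the FACT chaperone that loosens and rebuilds nucleosomes, had log2 ratios of -1.87, -1.34 and -2.47, well below 0 on every array (mean -1.89 ± 0.56, SD, n = 3; adjusted p = 0.0149, limma; 0.168 without array 1 and 0.121 without array 3). Over the 6 genes the median of the means was -0.72. POB3, the other FACT subunit, was at -0.080 and -1.15 on arrays 2 and 3 with no value on array 1. The median of the core histone genes exceeded SPT16 by 1.76, 0.97 and 2.01 on arrays 1, 2 and 3 (exact permutation p = 0.25, the smallest possible; SPT16 was chosen for its low value, which sets the direction).

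In the SWR1 list, which deposits H2A.Z, 4 of 13 genes were tested and RVB2 was lower. An unadjusted limma p below 0.05 was reached by 3 (RVB2, RVB1 and SWC5), against 16.3% of all tested genes higher and 19.8% lower. RVB2, an ATPase shared by SWR1 and INO80 that also acts in assembling small nucleolar ribonucleoproteins, had log2 ratios of -1.24, -0.70 and -1.44 (mean -1.13 ± 0.39, SD, n = 3; adjusted p = 0.0361, limma; 0.217 without array 1 and 0.193 without array 3). SWC5, a subunit of the complex, lay on the other side of 0, at 0.21, 0.59 and 1.81 (adjusted p = 0.131, limma). SWR1 itself, the catalytic subunit, was at -0.67 and -0.43 on arrays 2 and 3, and SWC4 at -0.51 and -1.14. SWC3, VPS71, VPS72 and BDF1 were above 0 on both. Of the 12 genes of the list with at least 2 arrays 7 had means below 0, against 50.3% of all such genes. In the INO80 complex list, 0 of 3 tested genes passed in limma and 2 did at an unadjusted p below 0.05. IES6, an INO80 subunit, had log2 ratios of 1.21, 0.43 and 1.23 (mean 0.96 ± 0.46, SD, n = 3; adjusted p = 0.0622, limma). Its adjusted limma p was 0.0223 without array 2, 0.307 without array 1 and 0.26 without array 3.

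Of the enzymes that modify histones, 0 of 12 acetyltransferase genes had a value on array 1, and their medians on arrays 2 and 3 were -0.24 and -0.11. Of 13 deacetylase genes 6 were tested and 0 passed in limma (1 at an unadjusted p below 0.05). The means of the 6 were below 0, as were 52.3% of all tested genes, and their medians were -0.92, -0.17 and -0.20 on arrays 1, 2 and 3. With at least 2 arrays 9 of 12 were below 0, against 50.3% of all such genes. The gene with an unadjusted p below 0.05 was HST3, a sirtuin that deacetylates new H3, at -0.71, -1.07 and -0.84 (mean -0.87 ± 0.18, SD, n = 3; adjusted p = 0.0599, limma). Of 11 methylation and ubiquitylation genes 6 were tested and SET1, the catalytic subunit of the COMPASS methyltransferase of H3, was lower at -1.76, -0.91 and -0.80 (mean -1.16 ± 0.53, SD, n = 3; adjusted p = 0.0406, limma; 0.261 without array 1 and 0.151 without array 3).

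In the list for turnover of excess histones, 2 of 5 genes were tested. UBC5, a ubiquitin-conjugating enzyme that acts broadly on abnormal and short-lived proteins as well as on surplus histones, was higher at 2.66, 1.46 and 2.25 (mean 2.12 ± 0.61, SD, n = 3; 4.35-fold; adjusted p = 0.013, limma; 0.168 without array 1 and 0.117 without array 3). Its near copy UBC4 was at 0.12, 0.55 and -0.068 and did not pass (adjusted p = 0.64, limma). The kinase gene RAD53, which triggers degradation of free histones, was at -0.034 and -0.57 on arrays 2 and 3. CSE4, the centromeric variant of H3, was at -0.25 and 0.15 on arrays 2 and 3 and was not tested with all arrays.

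Transcripts of the cell cycle were set beside the histone genes because the core histone genes are S phase genes. Of 22 genes of the G1/S transition and DNA replication, 8 were tested, and RNR1 was lower. RNR1, the large subunit of ribonucleotide reductase, had log2 ratios of -1.87, -1.68 and -1.18 (mean -1.58 ± 0.35, SD, n = 3; 2.98-fold lower; adjusted p = 0.017, limma; 0.172 without array 1 and 0.117 without array 3). The 8 tested genes had medians of -0.71, -0.20 and -0.51 on arrays 1, 2 and 3, and the core histone medians there were -0.11, -0.37 and -0.45. The core histone median exceeded RNR1 by 1.76, 1.31 and 0.73 on the 3 arrays, a difference of 1.27 ± 0.52 (SD, n = 3) in the same direction each time (exact permutation p = 0.25, the smallest possible; RNR1 was chosen for this after its value was seen). All 22 genes had values on arrays 2 and 3, with medians of -0.50 and -0.78 and 19 of 22 means below 0, against 50.3% of all genes with at least 2 arrays.

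When genes measured on at least 2 arrays were tested, limma called 5.39% of 5043 higher and 5.83% lower, 11.2% in all, and in the G1/S list RNR1, CLN1 and CLN2 were lower. CLN1 and CLN2, the G1 cyclin genes, were at -1.40 and -1.72 on array 2 and at -1.37 and -1.27 on array 3. Their adjusted limma p was 0.0463 and 0.0397 in that fit, with no value on array 1. Of the G2/M list 0 of 3 genes passed with all arrays. An unadjusted limma p below 0.05 was reached by 2, against 16.3% of all tested genes higher and 19.8% lower. ALK1, a haspin-like kinase gene, was at -1.07, -1.09 and -0.53 (adjusted p = 0.0638, limma). With at least 2 arrays the mitotic cyclin gene CLB2 (-1.96 and -1.16 on arrays 2 and 3) and the factor gene SWI5 (-1.70 and -1.26) were lower in the G2/M list. Their adjusted limma p was 0.0405 and 0.0402, again with no value on array 1. In the genes with all arrays, limma on arrays 2 and 3 alone passed 0 of 3039. The medians of the G2/M list on arrays 2 and 3 were -1.06 and -0.73. Means were below 0 for 9 of its 10 genes, against 50.3% of all genes with at least 2 arrays. In the early G1 list 0 of 7 passed in limma, and the 2 with an unadjusted p below 0.05 lay on opposite sides of 0. SIC1, an inhibitor of the S phase kinase, was at 1.33, -0.067 and 1.27 (mean 0.84 ± 0.79, SD, n = 3; adjusted p = 0.132, limma). Its adjusted limma p was 0.018 without array 2, 0.501 without array 1 and 0.439 without array 3. The G1 cyclin gene CLN3 was at -1.09, -0.66 and -0.38 (mean -0.71 ± 0.36, SD, n = 3; adjusted p = 0.117, limma). The 8 histone genes had adjusted p of at least 0.174 in the fit with at least 2 arrays.

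**Figure D4:**
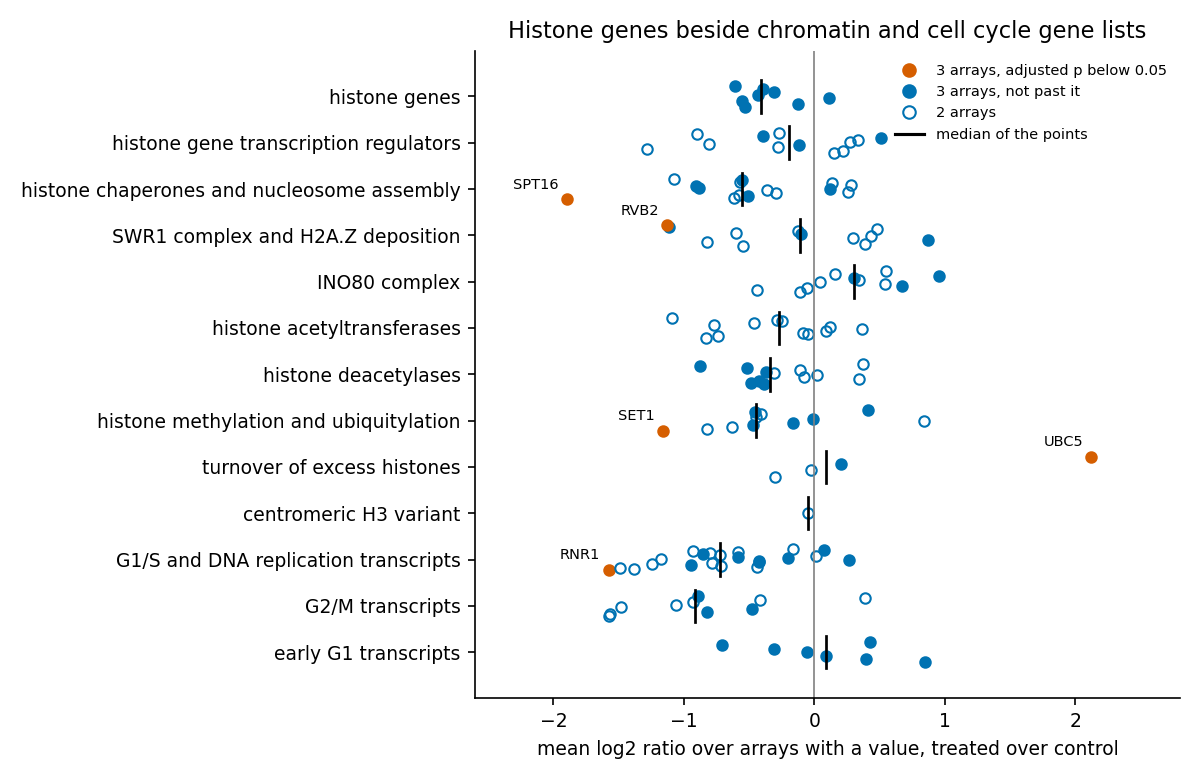
Rows are the histone genes and the 12 gene lists, and the horizontal axis is the mean log2 ratio over arrays with a value; filled points have 3 arrays (orange where the adjusted limma p was below 0.05), open points 2, and bars mark the median of a row's points. The histone genes form a narrow row from -0.61 to 0.11, while SPT16 at -1.89 and RNR1 at -1.58 lie outside that span on the low side and UBC5 at 2.12 on the high side.

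Genes next to the histone loci on the chromosome, looked up in the RefSeq gene table after the histone values were seen, differed in sign. The 6 loci had 12 neighbours that are not histone genes, of which 9 were tested, 2 had values on arrays 2 and 3 alone and 1 had no named spot. Of the 9, 0 were higher and 2 lower in limma, against 8.36% and 9.64% of all genes. Both calls held without array 2 (adjusted limma p of 0.015 for ADK1 and 0.0033 for NAN1). ADK1, the adenylate kinase gene beside HTA1, was at -1.75, -0.61 and -1.13 (adjusted p = 0.0425, limma; 0.265 without array 1 and 0.187 without array 3). NAN1, a ribosome assembly gene beside HHO1, was at -1.82, -1.45 and -2.28 (adjusted p = 0.0137, limma; 0.168 without array 1 and 0.117 without array 3). ECM15, next to HTB2, was at 0.69, 1.48 and 0.24 (adjusted p = 0.12, limma), and CRF1, next to HTB1, at 0.32, 0.40 and 1.31 (adjusted p = 0.159, limma). TBF1, the other neighbour of HHO1, was at -0.24, -1.12 and -0.75 (adjusted p = 0.131, limma). The drug transporter gene FLR1, next to HHF1, was at -0.089, 0.47 and 0.84 (adjusted p = 0.358, limma), and the pyrophosphatase gene IPP1, next to HHT1, at 0.18, 0.64 and 0.081 (adjusted p = 0.465, limma). HRD1 and PLB3, on either side of HTZ1, had means of 0.23 and -0.065.

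The genes outside the group whose log2 ratios were nearest to the mean profile of the 7 core histone genes (-0.23, -0.27 and -0.46 on arrays 1, 2 and 3) were UTP30, SKI8, AEP1, SAD1 and YLR179C. Their Euclidean distances over the 3 arrays were 0.117, 0.122, 0.142, 0.144 and 0.154, and their means ran from -0.38 to -0.26. The core histone genes themselves lay between 0.339 (HHF2) and 0.830 (HHT1) from that profile. The 5 were picked as the smallest distances of 3031 candidates, so their being nearer than the 7 core genes says little about those genes. Over only 3 arrays many of the 3031 candidate genes with small ratios come near such a profile.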

How the data were processed

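The deposited table holds a log2 ratio per spot and array, LOWESS-normalised by the authors on spots with flag value 0, per the labels' description; its log base and direction are not written, and base 2 and treated over control are assumed. Image software, background correction and array design are not given in the sources used, and no intensities were used, so signal over background is unknown. Of 6272 spots 5308 had 1 gene symbol, and the other 964 had none or more than 1 and were left out of the main test. Symbols were updated through Entrez identifiers to RefSeq assembly R64 (5304 matched), and spots of a gene were averaged. The test against 0 used limma 3.58.1 under R 4.3.3 (intercept only, eBayes, two-sided, Benjamini-Hochberg over 3039 genes with all 3 arrays, threshold 0.05), which was tested on simulated data. Intervals are 95% limma intervals. Pair differences used exact sign-flip permutations. Alternatives were centring, scaling, genes on at least 2 arrays, array weights, robust variance, unnamed spots, natural logs, each array left out and, added later, unmoderated variance. Named genes were the members, up to 2 passing genes per direction of each list (otherwise the tested gene with the largest absolute mean) and the 5 nearest profiles; others were chosen after their values were seen. The members and lists were chosen with earlier results of these data known. No sequences are printed.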

Additional observations from a re-analysis of the deposited data

How the results depend on the processing

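In every alternative run, 0 of the 8 histone genes passed in either direction, with a smallest adjusted p of 0.127 (array weights, limma). At an unadjusted p below 0.05 only the unmoderated variance gave any, 3 of 8, against 635 of all 3039 genes in that setting. The median of the core histone genes, -0.39, ranged from -0.57 (natural logs) to -0.29 (array weights), and from -0.50 to -0.24 with 1 array left out. With 1 array left out HTB1 ranged from -0.29 to 0.14 (above 0 without array 1) and HHT1 from -0.052 (without array 2) to 0.31. With 1 array left out, HHF1 minus HHF2 ranged from -0.034 to 0.26, HHF2 minus HHT2 from -0.12 to 0.18, HTB1 minus HTB2 from 0.22 to 0.64, HHT1 minus HHT2 from 0.27 to 0.78, HHF1 minus HHT1 from -0.58 to -0.13, HTA1 minus HTB1 from -0.63 to -0.27, YTA7 from 0.18 to 0.74 and the H2A and H2B median minus the H3 and H4 median from -0.36 to 0.16; PLB3 ranged from -0.50 to 0.15 (above 0 without array 1 or array 2). Genes of the lists past the threshold were 1 higher and 4 lower of 48. Array weights gave 3 and 11, where calls over all 3039 genes were 372 higher and 429 lower. The fitted weights were 1.66, 0.61 and 0.99 for arrays 1, 2 and 3. Genes on at least 2 arrays gave 1 and 8 of 129 (0.775% and 6.2%), against 5.39% and 5.83% of all such genes. Unmoderated variance gave 0 and 0, as it did among all genes. With 1 array left out the list calls ranged from 0 to 3 higher and 0 to 9 lower, and calls over all genes (254 and 293) from 0 to 373 higher and 0 to 366 lower. The causes of these changes were not tested. The arrays form 1 group, and each ratio already pairs treated RNA with its own control on the same array. The test against 0 thus uses that pairing, and no further paired analysis was run.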
